A study of Mus musculus with 4 samples.

Results

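Transcripts of the mitochondrial respiratory chain were measured in 2 cultured mouse melanocyte lines that differ in pigment. The genes were chosen by symbol: the Nduf, Uqcr and Sdha to Sdhd genes, the Cox4 to Cox8 genes with a letter a to c after the digit, Cycs, Cyc1, Ppargc1a and Ppargc1b. Only probe sets annotated with exactly 1 symbol were used, which gave 75 genes of the 18193 on the array and 157 probe sets of 34945. Of the 75 genes, 72 passed the filter on dim genes and were tested, and Cox6b2, Cox7a1 and Cox8b did not pass it. Cox7b had no probe set with a single symbol and is not analysed here.

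The respiratory chain passes electrons from NADH (complex I) and succinate (complex II) through ubiquinone, complex III and cytochrome c to complex IV, where oxygen is reduced, and complexes I, III and IV pump protons that drive ATP synthesis. Most of its subunits are encoded in the nucleus, and their genes are known targets of the transcription factor NRF1, of ETS factors such as GABP and of the PGC-1 coactivators, encoded by Ppargc1a and Ppargc1b. In cells of the melanocyte lineage, Mitf, the regulator of pigment genes, is known to activate Ppargc1a.

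Both lines were Balb/c melanocytes from skin. The line without pigment was homozygous for a point mutation in the tyrosinase gene, whose product is the first enzyme of melanin synthesis. The pigmented line was wild type there, the mutation having been corrected. Both were kept in RPMI 1640 with FCS, 2-mercaptoethanol and TPA, a phorbol ester used in melanocyte culture, so both lines had received it. Total RNA was hybridised to 4 Affymetrix mouse expression arrays, 2 per line. The sample titles hold 2 dates, each shared by a pigmented and a non-pigmented array. They are called array dates here, but the titles do not say what was dated. The labels do not say whether the 2 arrays of a line came from separate cultures, so each p-value here measures no more than the spread among these arrays, which may be technical.

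The median signal was 99.7 to 111 on the non-pigmented and 126 to 130 on the pigmented arrays. Of 10 melanocyte markers, 7 were called higher in the pigmented line, where their summed signal was 130000 to 141000 against 15600 to 26800. Tyr, the tyrosinase gene, had log2 values of 7.84 and 6.38 in the non-pigmented line, close to the filter at 6.44, and Kit had 6.29 and 6.46. Sox10, a factor of the whole neural crest lineage, was between 13.02 and 13.32 on all 4 arrays. Of 9 Schwann cell and progenitor markers, 5 were called lower in the pigmented line, where the summed signal of the list was 2560 to 3560 against 22800 to 27700. Mal, of the same list, went the other way without a call, with 5.96 and 5.70 in the non-pigmented and 7.70 and 7.47 in the pigmented line. In a bulk sample, fewer cells of a type and less RNA per cell cannot be told apart. These marker lists move with the line in the same way as any difference given here, and their part in the results was not tested. The ratio of 3′ to 5′ signal of Gapdh, taken here as a sign of RNA integrity, differed within each line. It was 0.903 and 0.864 in replicate 1 of the non-pigmented and the pigmented line, and 20.2 and 16.8 in replicate 2. Arrays with a ratio over 3 are named low 5′ signal and the others intact RNA. The labels state no RNA integrity, and the cause of the ratio was not tested.

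Most respiratory chain transcripts differed little between the lines. Differences are given as pigmented minus non-pigmented on the scale log2(signal + 16), with the standard error from limma and 2 arrays per line. A gene was called at a Benjamini-Hochberg adjusted p under 0.05 over all 12558 tested genes. The differences of the 72 tested chain genes had a median of 0.02, beside 0.07 for all tested genes, with 39 positive and 33 negative. They lay close together: 57 of 72 (79.2%) were within 0.5 log2 units of 0, beside 53.5% of all tested genes, and 68 of 72 (94.4%) were within 1, beside 79.8%. The chain genes were also brighter, with a median log2 level of 12.30 beside 9.32, and 62 of 72 lay above the median level of all tested genes. The part of signal level in this narrow spread was not tested. The SD of the differences was 0.54 over the chain genes and 0.40 without Ndufa4l2 and Cox7b2, beside 1.12 over all tested genes. Centring each array on its median moved every difference down alike, with a median of -0.225 for the chain genes and -0.18 for all tested genes, so the sign of a difference near 0 depends on the scaling. The median SE was 0.41 for the chain genes and 0.47 for all tested genes.

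Ndufa4l2 was the 1 chain gene called, lower in the pigmented line, and no chain gene was called higher. Over all tested genes, 3.36% were called, and 2.03% were called lower in the pigmented line. At an unadjusted p under 0.05 there were 3 chain genes (4.17%), namely Ndufa4l2, Cox7b2 and Cox5a, all lower in the pigmented line, beside 13.8% of all tested genes. The first and the second of these passed the filter on dim genes only through the non-pigmented line, so their count supports nothing further. The arrays of the lines did not overlap for 24 chain genes (33.3%), 12 higher and 12 lower in the pigmented line, beside 43.9% of all tested genes. A missed threshold does not show equal levels: the 95% interval of the difference lay within 1 log2 unit of 0 for 12 of the 72 chain genes (16.7%) and for 2.18% of all tested genes.

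**Figure D1:**
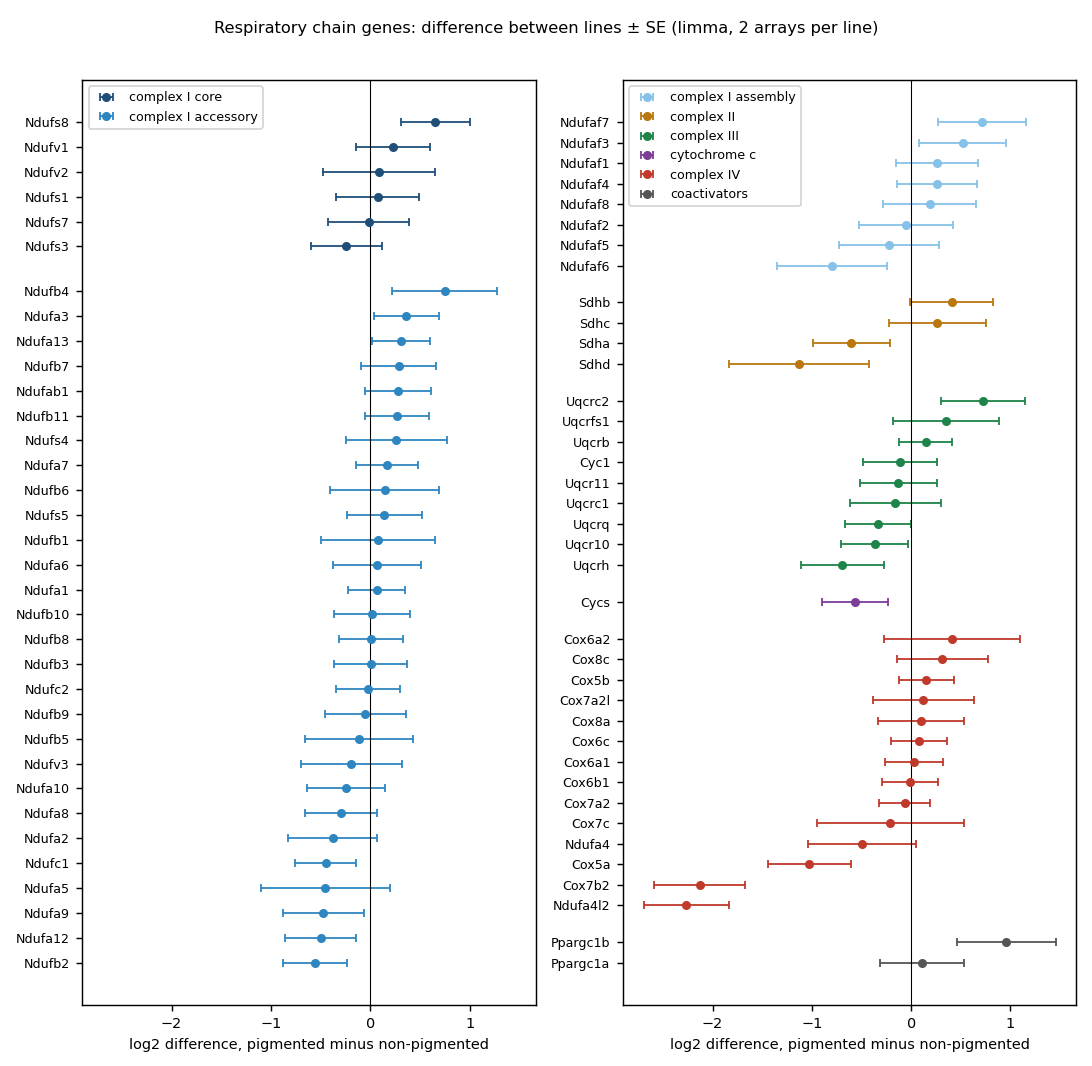
Difference between the lines for each of the 72 tested respiratory chain genes, on the log2(signal + 16) scale, pigmented minus non-pigmented, as points with the limma standard error (2 arrays per line). Genes are grouped by complex or role and ordered by the difference within a group; most points lie within 0.5 of 0, and Ndufa4l2 and Cox7b2 stand at -2.26 and -2.13.

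The core subunits of complex I carry the flavin and the iron-sulfur clusters along which electrons leave NADH. The 6 genes of this group had differences between -0.24 (Ndufs3) and 0.66 (Ndufs8), with a median of 0.08, and none was called. Ndufs8, which holds a pair of iron-sulfur clusters, had log2 values of 12.56 and 12.57 in the non-pigmented and 12.94 and 13.51 in the pigmented line, a difference of 0.66 ± 0.35 (adjusted p = 0.498). Both pigmented arrays were higher, and all 6 of its probe sets gave a positive difference, from 0.35 to 0.70. Ndufs3, a subunit of the arm that joins the matrix to the membrane, had 12.29 and 11.98 against 11.87 and 11.92, with no overlap between the lines and an adjusted p of 0.848. Ndufv1, which binds NADH and the flavin, differed by 0.23 ± 0.37. Ndufs1, the largest core subunit, differed by 0.07 ± 0.41, and Ndufs7 by -0.02 ± 0.41.

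The 28 accessory subunits of complex I surround the core and are needed for its assembly and stability. Their median difference was 0.01, 16 were positive and 12 negative, and 26 of the 28 lay within 0.5 of 0. None was called. Ndufb2 had the most negative difference, -0.56 ± 0.32 (adjusted p = 0.538), from 13.02 and 12.90 in the non-pigmented and 12.51 and 12.29 in the pigmented line. The lines did not overlap there, and another of its 3 probe sets was also lower, at -0.88, while the third, a dimmer one, was higher, at 0.84. Ndufb4 had the most positive difference, 0.75 ± 0.53 (adjusted p = 0.637), from 6.81 and 6.39 against 7.87 and 6.84. Its single usable probe set lay near the filter, so this value is among the least certain. Ndufa1, a small membrane subunit, had 13.39 and 13.60 against 13.45 and 13.68, a difference of 0.07 ± 0.29 with a 95% interval of -0.63 to 0.76. Ndufa9, which binds a nucleotide cofactor, had -0.47 ± 0.41, and Ndufa13, known also as Grim-19, had 0.31 ± 0.29.

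For several accessory subunits the probe sets of 1 gene went different ways. Ndufa12 had -0.50 from its brightest probe set, and the others gave -0.21, 0.23 and 2.32. The last of these lay below the filter on the mean, with 4.63 and 5.69 against 7.28 and 7.68. Ndufab1, the mitochondrial acyl carrier protein, had 0.28 from the brightest of 5 probe sets, with a range from -0.39 to 1.04. Ndufc2 had -0.02 from the brightest of 4, with a range from -0.65 to 0.55. Over all chain genes, 40 had several probe sets above the filter, and in 26 of these the probe sets had the same sign.

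The 8 Ndufaf genes encode factors that assemble complex I and are not part of the finished enzyme. Their median difference was 0.22, and none was called. For Ndufaf1, Ndufaf3, Ndufaf4 and Ndufaf7, 4 of the 8, both pigmented arrays were above both non-pigmented ones. None of the 8 had both pigmented arrays below both non-pigmented ones. Of all 12558 tested genes, 3061 had both pigmented arrays above and 2446 had both below, which in either direction is 43.9%. With so few genes, the count of the assembly factors was not tested, and it does not set them apart. Ndufaf7, a methyltransferase, had 9.25 and 8.68 in the non-pigmented and 9.54 and 9.81 in the pigmented line, a difference of 0.71 ± 0.44 (adjusted p = 0.573). Ndufaf3 had 9.96 and 9.38 against 10.13 and 10.24, a difference of 0.52 ± 0.44. Ndufaf6 had the most negative difference, -0.80 ± 0.56 (adjusted p = 0.631), with 9.27 and 7.98 against 8.02 and 7.63. Its groups overlapped, because the second non-pigmented array was below the first pigmented one.

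Complex II, succinate dehydrogenase, belongs to both the citrate cycle and the chain. Sdha, the flavoprotein that oxidises succinate, had log2 values of 11.71 and 11.80 in the non-pigmented and 11.35 and 10.96 in the pigmented line, a difference of -0.60 ± 0.39 (adjusted p = 0.591). Both pigmented arrays were lower. Sdhb, the iron-sulfur subunit, had 12.80 and 12.23 against 13.33 and 12.52, a difference of 0.41 ± 0.42 (adjusted p = 0.767), and the lines overlapped. Sdhc, a membrane anchor, had 11.83 and 10.91 against 11.96 and 11.30, a difference of 0.26 ± 0.49 (adjusted p = 0.877), and the lines overlapped.

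Sdhd, the other anchor, had the largest difference within complex II and also the largest SE. Its values were 12.40 and 11.07 in the non-pigmented and 11.42 and 9.80 in the pigmented line, a difference of -1.13 ± 0.70 (adjusted p = 0.580). The lines overlapped, and within each line replicate 2, the array with low 5′ signal, was the lower one. A second Sdhd probe set had 9.42 and 10.43 against 9.05 and 9.83, so there replicate 2 was the higher one in both lines, and its difference between the lines was -0.48. The median of the 4 complex II genes was -0.17, and none was called. That median has no settled sign: it was 0.115 without the first non-pigmented array, 0.139 without the second pigmented array, -0.374 without the second non-pigmented array and -0.433 without the first pigmented array. It was -0.60 with probe sets unique to a gene and -0.01 when each gene's probe sets were averaged.

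Complex III passes electrons from ubiquinol to cytochrome c. Its 9 genes had a median difference of -0.13, 3 positive and 6 negative, and none was called. Without the first non-pigmented array this median was 0.14, so its sign rests on that array. Uqcrc2, a core protein of the matrix side, had 11.37 and 11.96 in the non-pigmented and 12.08 and 12.70 in the pigmented line, a difference of 0.72 ± 0.42 (adjusted p = 0.543). Both pigmented arrays were higher, and the second probe set gave 0.35. Uqcrh, the hinge protein at the cytochrome c docking site, had 12.89 and 13.13 against 12.78 and 11.84, a difference of -0.69 ± 0.42 (adjusted p = 0.561). The distance between the first pigmented and the first non-pigmented array was small there, and the second pigmented array was the low one. Uqcrfs1, the Rieske iron-sulfur protein, had 0.35 ± 0.53, and Uqcrb, which helps to bind ubiquinone, had 0.15 ± 0.27. The brightest probe set of Uqcrq, a small subunit, gave -0.33 ± 0.33, and its 4 probe sets ranged from -0.46 to 1.41.

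Cyc1 encodes cytochrome c1, the haem subunit of complex III that hands electrons to cytochrome c. It had 12.87 and 12.34 in the non-pigmented and 12.70 and 12.29 in the pigmented line, a difference of -0.11 ± 0.37 (adjusted p = 0.937), with overlapping lines and a 95% interval of -1.01 to 0.79. Cycs encodes cytochrome c, the mobile carrier between complexes III and IV, which also starts caspase activation when released. It had 13.25 and 13.72 against 13.09 and 12.76, a difference of -0.56 ± 0.33 (adjusted p = 0.548). Both pigmented arrays were lower, and its 4 probe sets gave -1.02, -0.19, -0.03 and -0.56.

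Complex IV, cytochrome c oxidase, has nuclear subunits with tissue isoforms. Of its 17 genes here 14 were tested, counting Ndufa4, whose protein was first assigned to complex I and is now placed in complex IV, and its paralogue Ndufa4l2. The median difference was 0.01, and 0.05 without Ndufa4l2 and Cox7b2. Those 2 genes were the most negative of all the chain genes. Of the tested complex IV genes only Ndufa4l2 was called.

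Ndufa4l2, known as a gene induced by hypoxia-inducible factor, had signals of 260 and 232 in the non-pigmented and 41.0 and 36.2 in the pigmented line. On the log2 scale these were 8.11 and 7.96 against 5.83 and 5.71. The lines were far apart relative to the spread within each, since the group means were 8.03 ± 0.11 and 5.77 ± 0.09 (SD, n = 2). The difference was -2.26 ± 0.43, a 4.8-fold lower value in the pigmented line (limma, adjusted p = 0.0498), with a 95% interval of -3.31 to -1.22. The difference was -2.28 between the arrays with intact RNA and -2.25 between those with low 5′ signal. As the lines did not overlap, both of these had to be negative. The call was marginal: by p Ndufa4l2 was in place 422, the last of the 422 called genes. It was lost with the array date as a block (adjusted p = 0.0934), with no filter on dim genes (0.114), with a pseudocount of 1 (0.0570), with robust estimation (0.0526), without the second pigmented array (0.0624) and without either non-pigmented array (0.249 without replicate 1, 0.204 without replicate 2). The gene has 1 probe set. Its pigmented values lay below the filter at 6.44, so it was tested only because of its non-pigmented values, and a gene that enters in this way has to differ. At such low values the fold depends on the pseudocount: the difference was -2.64 with a pseudocount of 1 and -1.60 with a pseudocount of 64. Ndufa4, its paralogue, had 13.24 and 12.41 against 12.99 and 11.67, a difference of -0.50 ± 0.55 (adjusted p = 0.785), and the lines overlapped.

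Cox7b2, a paralogue of Cox7b known from testis, had signals of 219 and 275 in the non-pigmented and 33.3 and 56.5 in the pigmented line, or log2 values of 7.88 and 8.18 against 5.62 and 6.18. Again the lines did not overlap. Both pigmented values lay below the filter, so this gene too was tested only through the line where it was higher. The difference was -2.13 ± 0.46, a 4.38-fold lower value in the pigmented line, and the adjusted p of 0.0766 missed the threshold. With the pair of RNA integrity classes as a block it was 0.0485, so 2 chain genes were then called, beside 7.04% of all tested genes. Without the second pigmented array the adjusted p was 0.0436. The gene has 1 probe set.

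Cox5a, which with Cox5b belongs to the nuclear subunits found in all tissues, had 13.27 and 13.83 in the non-pigmented and 12.96 and 12.08 in the pigmented line. Both pigmented arrays were lower, and its 3 probe sets gave -1.02, -1.04 and -1.30. The difference was -1.02 ± 0.42 (adjusted p = 0.357), and it was -0.58 without the second pigmented array. Between the arrays with intact RNA it was -0.30, and between those with low 5′ signal -1.75. Cox5b had 13.54 and 13.61 against 13.60 and 13.85, a difference of 0.15 ± 0.28.

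**Figure D2:**
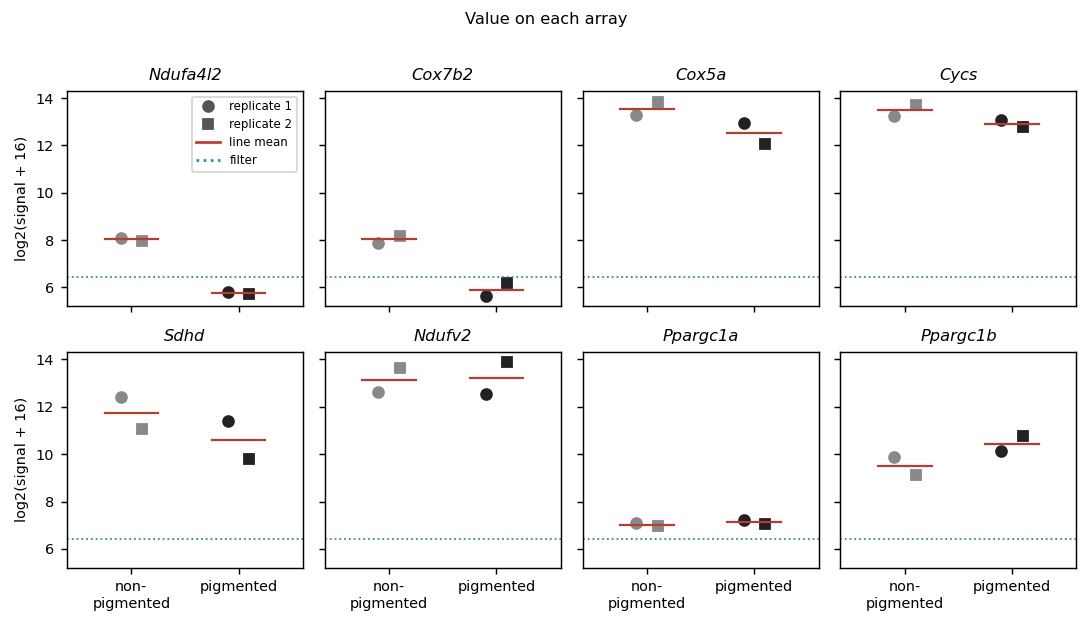
Value on each array, log2(signal + 16), of respiratory chain genes named in the text, with grey points for the non-pigmented and black points for the pigmented line, circles for replicate 1, squares for replicate 2, a red line at the mean of a line and a dotted line at the filter of 6.44. Ndufa4l2 and Cox7b2 lie above the filter on both non-pigmented arrays and below it on both pigmented arrays, and Ppargc1a lies at about the same height on all 4.

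The isoform families of complex IV were compared within each gene only. Among the isoforms found in most tissues, Cox6a1 differed by 0.03 ± 0.29 (95% interval -0.68 to 0.73), Cox6b1 by -0.01 ± 0.28, Cox7a2 by -0.07 ± 0.26 and Cox8a by 0.10 ± 0.43. Cox7a2l, which helps to join complexes III and IV into supercomplexes, differed by 0.12 ± 0.51. The adjusted p of these 5 genes was 0.946 or more. Over the alternatives, however, the difference ranged from -0.45 to 0.69 for Cox7a2l and from -0.36 to 0.56 for Cox8a, with adjusted p-values down to 0.572 and 0.805. Of the heart and muscle isoforms, Cox7a1 and Cox8b were too dim to test, with log2 values of 4.99 and 6.82 against 7.05 and 5.29 for Cox7a1, and of 6.76 and 4.45 against 6.08 and 4.47 for Cox8b. Cox6a2, the third of these, had 7.66 and 8.61 against 7.69 and 9.40, a difference of 0.41 ± 0.69 (adjusted p = 0.868), with overlapping lines. Of 12 striated muscle markers 3 passed the filter, and the summed signal of the list was 425 to 598 on the 4 arrays. Of the isoforms known from testis, Cox6b2 was dim, at 4.52 to 5.68, and Cox8c had 9.32 and 9.55 against 9.39 and 10.10, a difference of 0.31 ± 0.46. Cox7c has a single isoform, and its probe sets with 1 symbol were dim or varied, with 7.19 and 7.56 against 6.10 and 8.23.

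The coactivators of the chain genes did not pass the test. Ppargc1a, which encodes PGC-1α, had 7.11 and 6.95 in the non-pigmented and 7.21 and 7.06 in the pigmented line, a difference of 0.11 ± 0.42 (adjusted p = 0.948). The 95% interval was -0.92 to 1.14, and its 4 other probe sets lay below the filter with differences from -0.87 to 1.62. On the same arrays Mitf had 9.66 and 10.64 against 13.71 and 13.31, a difference of 3.36 ± 0.46 (adjusted p = 0.0182). Ppargc1b, which encodes PGC-1β, had 9.88 and 9.10 against 10.13 and 10.77, so both pigmented arrays were higher. Its difference was 0.96 ± 0.50, or 1.94-fold, with an adjusted p of 0.492, the most positive difference of the 72 chain genes. It was 0.24 between the arrays with intact RNA and 1.68 between those with low 5′ signal.

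The promoters of 61 chain genes were found in the RefSeq table of GRCm38.p6, in 63 windows of 300 bases, from 250 before to 50 after a gene start. They held a median of 19 CpG pairs and 59.0% G and C, beside 7 pairs and 52.7% over all 32851 windows. The windows of Cycs and Cox7b2 are printed because the first held 4 of the 6 motifs searched and the second belongs to a gene whose lines stood far apart. Cycs is at chr6:50566520-50566819 and Cox7b2 at chr5:71548156-71548455, both on the minus strand of GRCm38.p6, written 5′ to 3′ with motif matches in capitals.
Cycs: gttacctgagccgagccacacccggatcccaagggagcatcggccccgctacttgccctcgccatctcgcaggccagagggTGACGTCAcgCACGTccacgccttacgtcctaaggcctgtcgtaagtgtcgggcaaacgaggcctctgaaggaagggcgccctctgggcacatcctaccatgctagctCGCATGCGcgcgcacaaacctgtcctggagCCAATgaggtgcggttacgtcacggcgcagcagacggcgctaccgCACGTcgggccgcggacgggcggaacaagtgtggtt
Cox7b2: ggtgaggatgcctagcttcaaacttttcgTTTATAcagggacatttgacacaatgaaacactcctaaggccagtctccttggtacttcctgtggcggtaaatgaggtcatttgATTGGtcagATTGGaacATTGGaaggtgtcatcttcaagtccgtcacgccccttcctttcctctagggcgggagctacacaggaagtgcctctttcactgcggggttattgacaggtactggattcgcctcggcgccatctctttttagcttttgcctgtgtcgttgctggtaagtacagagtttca
The motifs were searched on both strands. In Cycs the capitals mark, in order, a cAMP response element (TGACGTCA), a hypoxia response element (ACGTG, read here as CACGT on the other strand), an NRF1 motif (CGCANGCG), an NF-Y motif (CCAAT) and another hypoxia response element. In Cox7b2 they mark a TATA box (TATAAA) and 3 NF-Y motifs, all on the other strand. The Cycs window held 32 CpG pairs and the Cox7b2 window 10.

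The NRF1 motif was present in 20 of the 63 windows (31.7%), those of 18 genes, beside 8.21% of all windows. The ETS motif (CCGGAAG) was in 13 (20.6%), beside 8.86%, and the cAMP response element in 4 (6.35%), beside 1.79%. The NF-Y motif was in 38.1%, beside 37.4%, the hypoxia response element in 25.4%, beside 19.6%, and the TATA box in 11.1%, beside 13.6%. The NRF1 and ETS motifs and both response elements contain CpG, in which these windows are rich, so the shares were not compared at equal CpG content. A match is a description of the letters in the window. The 18 genes with an NRF1 motif, all tested, had differences between the lines from -1.13 (Sdhd) to 0.75 (Ndufb4), 7 positive and 11 negative.

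For most chain genes the arrays differed more between the integrity classes, which are also replicate 2 and replicate 1, than between the lines. The difference between arrays with low 5′ signal and arrays with intact RNA was larger in size than the difference between the lines for 46 of 72 chain genes (63.9%), beside 49.2% of all tested genes. It had the same sign in both lines for 55 of the 72 (76.4%), beside 67.2% of all tested genes. Its median was small, 0.01 in the non-pigmented and 0.06 in the pigmented line, beside 0.02 and 0.01 over all tested genes, so the chain genes went either way. For Ndufv2, Ndufb5, Ndufb6 and Sdhd it exceeded 1 log2 unit with the same sign in both lines. Ndufv2, a core subunit of complex I with an iron-sulfur cluster, is an example: it had 12.63 and 13.66 in the non-pigmented and 12.56 and 13.90 in the pigmented line. Replicate 2 was the higher array in both lines, and the difference between the lines was 0.09 ± 0.56.

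**Figure D3:**
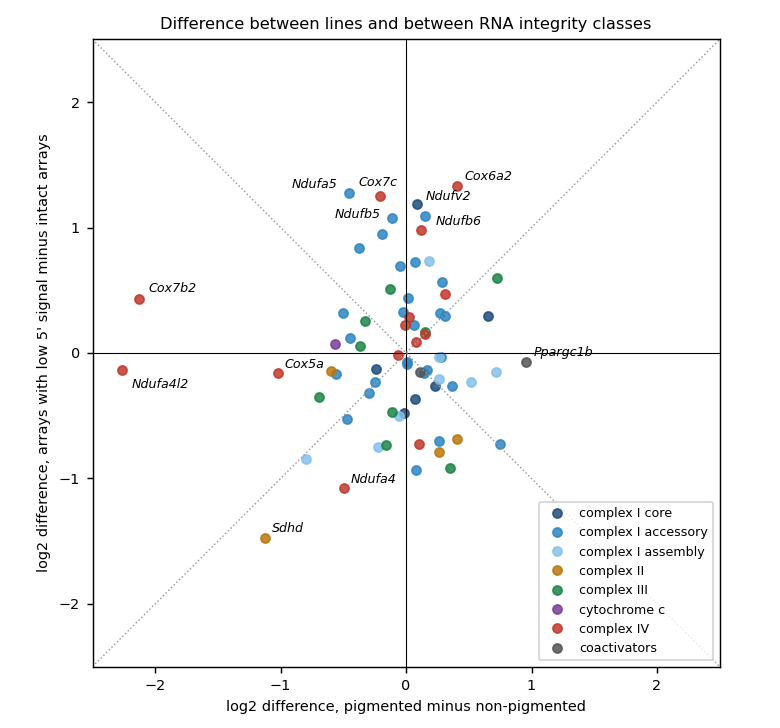
Each tested respiratory chain gene by its log2 difference between the lines (horizontal, pigmented minus non-pigmented) and its log2 difference between arrays with low 5′ signal and with intact RNA (vertical, mean of both lines); colours mark the complex, and dotted lines mark equal size. The points of 46 of 72 genes lie in the upper and lower sectors, where the integrity difference is the larger. Ndufa4l2 and Cox7b2 lie far to the left, at -0.14 and 0.43 on the vertical axis.

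The median difference of the chain genes was -0.06 between the arrays with intact RNA and 0.13 between those with low 5′ signal. By the date in the sample titles, where each date holds 1 array of either line, it was 0.00 on the first and -0.01 on the second. Ndufa4l2 was lower in the pigmented line on both dates, at -2.40 and -2.13, and so were Cox7b2, at -1.70 and -2.56, and Cox5a, at -1.19 and -0.86. For these genes the lines did not overlap, so every pair of a pigmented with a non-pigmented array had to be negative. The same sign on both dates therefore adds nothing. With 1 array per line in each such pair, these values have no test.

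**Figure D4:**
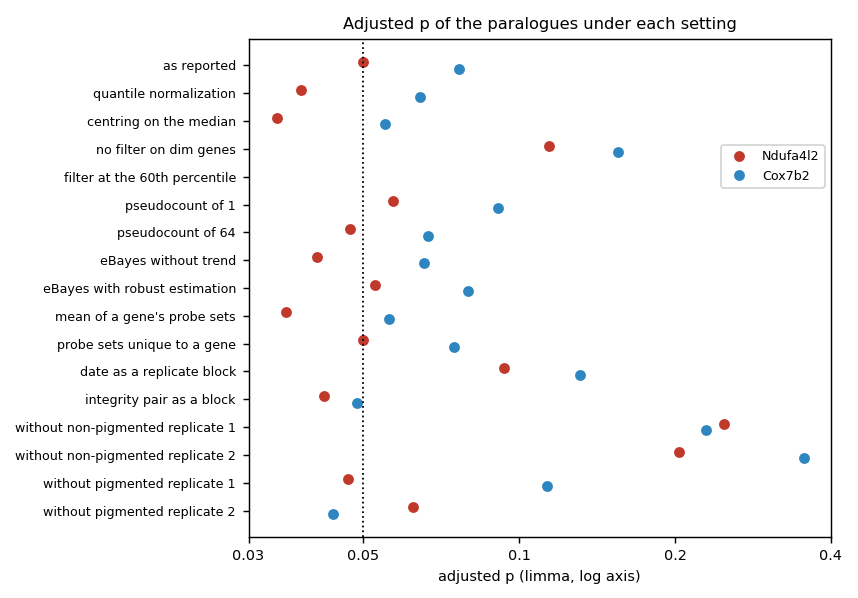
Adjusted p from limma, on a log axis, of Ndufa4l2 (red) and Cox7b2 (blue) under the reported setting and each alternative, with a dotted line at the threshold of 0.05. Ndufa4l2 lies under the threshold in 8 of the 15 alternatives in which it was tested and Cox7b2 in 2; the filter at the 60th percentile removed both.

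Genes that work with the chain but fall outside the symbol rule were read from the same fit. None was called in the lists of 17 ATP synthase genes, 8 further chain genes, 27 assembly factors of complexes II to IV, 8 further complex I assembly factors and 24 regulators of mitochondrial biogenesis that were tested. At an unadjusted p under 0.05 these lists held 0, 1, 2, 1 and 0 genes. Over all tested genes 3.36% were called and 13.8% had an unadjusted p under 0.05, and 6822 differences were positive and 5736 negative. Of the ATP synthase genes 13 had a negative and 4 a positive difference, with a median of -0.20 and a range from -0.53 (Atp5l, a membrane subunit) to 0.46. Of the assembly factors of complexes II to IV 20 were positive and 7 negative, with a median of 0.29. Sco2, which delivers copper to complex IV, had 8.23 and 7.78 against 9.78 and 9.05, a difference of 1.41 ± 0.47 (adjusted p = 0.241), and both pigmented arrays were higher.

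Nubpl, which inserts iron-sulfur clusters into complex I, had the largest difference of these genes. Its values were 9.33 and 9.26 in the non-pigmented and 5.28 and 7.19 in the pigmented line, a difference of -3.06 ± 0.68 (adjusted p = 0.0833). The lines did not overlap, and the pigmented arrays were far from each other. The pigmented mean of 6.23 lay below the filter at 6.44, so the gene passed through its non-pigmented values. The adjusted p was 0.0397 with the array date as a block, 0.0400 with the integrity classes as a block, and 0.00179 without the second pigmented array. The 8 complex I assembly factors that include Nubpl had a median of 0.18.

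Cox4i1, the common isoform of a complex IV subunit that the symbol rule does not take, had 13.54 and 13.67 against 13.45 and 13.68, a difference of -0.04 ± 0.28 (adjusted p = 0.974). Its hypoxia-responsive isoform Cox4i2 had 7.30 and 6.81 against 7.95 and 7.60, a difference of 0.72 ± 0.45 (adjusted p = 0.577). Prodh, proline dehydrogenase, which feeds electrons to the chain, had 7.36 and 8.42 against 9.80 and 9.23, a difference of 1.63 ± 0.53 (adjusted p = 0.230). ND5, a complex I subunit encoded in mitochondrial DNA and the one such gene with a usable probe set, had 13.81 and 12.64 against 14.03 and 14.12. Both pigmented arrays were higher, by 0.85 ± 0.43 on average (adjusted p = 0.476). Among the regulators, the smallest p was that of Esrrb, an orphan nuclear receptor, with 6.56 and 6.68 against 7.33 and 8.37, a difference of 1.23 ± 0.51 (adjusted p = 0.369). The median of the 24 regulators was 0.01.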

How the data were processed

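The deposited values are probe set intensity values on a linear scale, made by the authors with Affymetrix Expression Console per the submitters' processing notes. The summary algorithm and build are not given in the sources used here. The 2% trimmed mean of each deposited column was 500, which equalises arrays in bulk only and corrects no RNA integrity. The files give no detection call.

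Each gene was represented by its probe set with the highest mean, and genes with a mean log2(signal + 16) under the 40th percentile (6.44, a signal of 70.7) were left out, leaving 12558. Symbols came from the platform annotation, and all 75 chain genes matched RefSeq by Entrez number. The lines were compared by lmFit and eBayes with trend in limma 3.58.1 (R 4.3.3), with no block and Benjamini-Hochberg adjustment. The code was tested on simulated data. The number of arrays limits the precision: the smallest two-sided exact permutation p for 2 against 2 is 0.333.

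The genes, lists and tests were chosen with earlier results of these data known. Genes were named if p was under 0.05, if they had the largest difference of either sign in a group, if their probe sets differed in sign by 1 or more, or as fixed members of a family. Other genes (such as Ndufv2, Ndufa1, Cox5b and Uqcrb) were named after their values were seen. Deviations of same-date arrays correlated at -0.51 and those of the same integrity class at 0.51 over 12558 genes.

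Alternatives were 16: another normalization (quantile, median centring), filter (none, 60th percentile), pseudocount (1, 64), eBayes setting, probe set choice, block (date, integrity pair) or each array left out.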

Additional observations from a re-analysis of the deposited data

How the results depend on the processing

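The count of called chain genes, 1 as reported, was 0 with no filter, with the filter at the 60th percentile, with a pseudocount of 1, with robust estimation and with the date as a replicate block, 2 with the integrity classes as a block, and 0 to 1 when 1 array was left out. The cause was not tested, apart from the 60th percentile, which removed Ndufa4l2 and Cox7b2. Over its alternatives the adjusted p of Ndufa4l2 ranged from 0.0340 to 0.249 and its difference from -2.64 to -1.60. The count of called genes in the other lists, 0 as reported, was 1 with the date as a replicate block, 1 with the integrity pair, and 0 to 1 when 1 array was left out, each time Nubpl. The median difference of the chain genes, 0.02, was -0.225 with centring on the median, where that of all genes moved from 0.07 to -0.18, and -0.042 to 0.123 when 1 array was left out. Relative to all genes it was -0.05 both as reported and with centring. The median of complex III, -0.13, was -0.063 with quantile normalization, -0.374 with centring and -0.262 to 0.137 when 1 array was left out. With 1 array left out, the medians of complex I core, complex I accessory and complex IV genes also took either sign, from -0.01 to 0.286, -0.158 to 0.208 and -0.171 to 0.163. For the 33 named chain genes, 463 of 472 alternative values kept their side of the threshold. All those that changed side were values of Ndufa4l2 or Cox7b2, so the share says little about the call of Ndufa4l2. Another sign was seen in 28 values, in 14 genes, none of them a called value. Where 1 array was left out, the lone array of its line was assumed to vary like the other line. Without detection calls, dim probe sets could not be separated from background.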

Other observations

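Other mitochondrial genes outside the chain were also read from the fit, and limma called none. Over all tested genes 3.36% were called, and 13.8% had an unadjusted p under 0.05. The 17 genes of the citrate cycle had a median difference of 0.02 and none with an unadjusted p under 0.05. The smallest p was that of Suclg1, a subunit of succinyl-CoA ligase, with 11.79 on both non-pigmented arrays and 11.29 and 10.39 on the pigmented arrays, a difference of -0.95 ± 0.45 (adjusted p = 0.449). The 12 genes of coenzyme Q synthesis had a median of 0.33 and 1 gene at an unadjusted p under 0.05, Pdss2, which helps to make the isoprenoid tail. Pdss2 had 9.32 and 9.03 against 8.26 and 7.81, a difference of -1.14 ± 0.43 (adjusted p = 0.305). The 13 markers of mitochondrial mass, such as import receptors, had a median of -0.20 and none with an unadjusted p under 0.05, and Tomm70a had the smallest p, with -0.68 ± 0.43 (adjusted p = 0.582).

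A further 10 probe sets carried the symbol of a chain gene beside another symbol, so they belong to no single gene. Of these 9 passed the filter, and their differences ranged from -0.28 to 1.01 with a median of 0.30.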
